A study of Mus musculus with 8 samples.

Results

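Glycolysis splits glucose into pyruvate in the cytosol, and macrophages activated by bacterial products are known to raise glucose uptake and lactate output. Uptake by facilitative transporters, phosphorylation by hexokinase and the phosphofructokinase step are the points at which flux is usually taken to be set. Fructose-2,6-bisphosphate, which the PFKFB enzymes make and degrade, is the strongest activator of phosphofructokinase-1, and many of the genes are known targets of the oxygen-regulated factor HIF-1.

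The 10 genes described here, chosen by name, are the glucose transporter Slc2a1, the hexokinases Hk1, Hk2 and Hk3, the bifunctional enzyme Pfkfb3, the phosphofructokinase-1 subunits Pfkl and Pfkp, the aldolase Aldoa, the pyruvate kinase Pkm and the lactate dehydrogenase Ldha. They are 10 of the 30284 genes with a value and 10 of the 13009 genes tested. Each level is in TPM (a transcript abundance corrected for length and scaled to 1 total in all libraries) and is the sum over all annotated transcripts of the gene. All 10 passed the filter of at least 1 TPM in at least 2 libraries.

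Total RNA from macrophages of 7-week-old male C57BL6 mice, stimulated in the peritoneal cavity, was sequenced as 8 libraries, 2 in each of 4 groups. LPS+IFNb mice received IFNb, the type I interferon beta, for 4 h and then lipopolysaccharide (LPS, the outer-membrane component of Gram-negative bacteria) for 4 h. LPS mice had LPS for 4 h, IFNb mice had IFNb for 4 h, and Saline mice had saline for 4 h. IFNb had therefore been given 8 h before the end in LPS+IFNb and 4 h before it in IFNb, and there was no group with IFNb and a later saline injection, so time since IFNb and addition of LPS cannot be told apart between these groups. The title of the series places IFNb priming before the response of macrophages to LPS. The labels call the cells peripheral macrophages and give neither a dose nor a purification step. Whether each library is a separate animal is not said in the labels. Every p-value therefore rests on how far libraries of the same group lie apart, which may be technical. That spread is pooled over the 4 groups and moderated by the spread of other genes.

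Markers bore the macrophage label out in part. Lyz2, the myeloid lysozyme, stood between 10160 and 17557 TPM in the 8 libraries and the macrophage sialomucin Cd68 between 2694 and 3367 TPM. Timd4 and Gata6, which mark large resident peritoneal macrophages in mice, were at most 3.37 and 2.11 TPM. These genes belong to a list of 10 macrophage markers, with Adgre1, Itgam, Csf1r, Mertk, Icam2 and Fcgr1 as the others. The mean log2 level of the 10 lay between 6.43 and 7.01 in the 8 libraries. The sum of 4 monocyte markers (Ly6c2, Ccr2, Plac8 and Vcan) was 479 and 534 TPM in LPS+IFNb, 136 and 150.1 TPM in LPS, 558.5 and 681 TPM in IFNb and 71.0 and 63.3 TPM in saline. The sum of 11 neutrophil markers lay between 142 and 287 TPM in all libraries. Of these 11, 5 passed the filter, namely S100a8, S100a9, Mmp8, Retnlg and Cxcr2, while the granule genes Mpo, Elane and Ngp were at most 0.261 TPM. Summed markers of B cells lay between 85 and 159.6 TPM, of mast cells between 31.3 and 51.8 TPM, of T and NK cells between 5.62 and 26.3 TPM, of erythroid cells between 2.63 and 10.8 TPM and of mesothelial cells between 3.38 and 14.2 TPM. Mitochondrially encoded transcripts took 2.52% to 3.93% of TPM.

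LPS+IFNb raised 6 of the 10 genes over saline, and LPS and IFNb alone raised 4 each. These were the transporter Slc2a1, all 3 hexokinases, Pfkfb3 and Pfkp, while Pfkl and the later enzymes Pkm and Ldha did not pass the test and Aldoa fell. This split depended on the scale. After the median-ratio scaling given below, Pkm (0.67) and Ldha (0.89) were also called higher with LPS+IFNb, and Aldoa turned to 0.21, not called. Changes are differences of log2(TPM + 1) ± SE, a scale that understates the change of low genes, with limma's test and Benjamini-Hochberg adjustment over the 13009 genes, and 0.05 is the threshold on the adjusted p. The count of 6 higher and 1 lower stands against 69.4% of all genes changed in that comparison, 15.2% higher and 54.1% lower. The median change of the 10 genes was 0.96, against -0.62 for all genes.

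LPS alone raised Slc2a1, Hk2, Pfkfb3 and Pfkp over saline and lowered Hk3, so 4 genes were higher and 1 lower. Among all genes 54.1% changed in LPS against saline, 12.8% higher and 41.3% lower. The median change of the 10 genes was 0.02, against -0.38 for all genes. IFNb alone also raised 4 genes, of which Pfkfb3 and Pfkp are in the LPS group of 4 and Hk1 and Hk3 are not, and lowered 0. Among all genes 51.6% changed in IFNb against saline, 13% higher and 38.6% lower, and the median change was 0.65 for the 10 genes against -0.37 for all genes. The LPS count of 5 was 3 without Saline replicate 1 or without any library of LPS or LPS+IFNb. These comparisons share the saline libraries, so their values for a gene are given side by side and are not independent.

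The direct comparison of LPS with IFNb parted the genes into sets. Slc2a1 and Hk2 were higher with LPS and Hk1, Hk3 and Ldha lower with LPS, where 38.7% of all genes changed, 16.6% higher and 22.1% lower. LPS+IFNb exceeded LPS in Hk1, Hk3 and Pfkp, 3 genes higher and 0 lower, where 34.8% of all genes changed, 10.8% higher and 24.1% lower. LPS+IFNb exceeded IFNb in Slc2a1, Hk2 and Pfkp, again 3 higher and 0 lower, where 39.3% of all genes changed, 8.76% higher and 30.5% lower. Pfkp was called higher in LPS+IFNb against each of the 3 other groups. The LPS+IFNb libraries of Pfkfb3 also lay above all 6 others, but of its 3 comparisons only that with saline was called. The count in LPS against IFNb was 3 without LPS replicate 1 and 2 without IFNb replicate 2. The 3 calls against IFNb were thin: without IFNb replicate 2 or without LPS+IFNb replicate 1 the count was 0, and without LPS+IFNb replicate 2 it was 1.

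**Figure D1:**
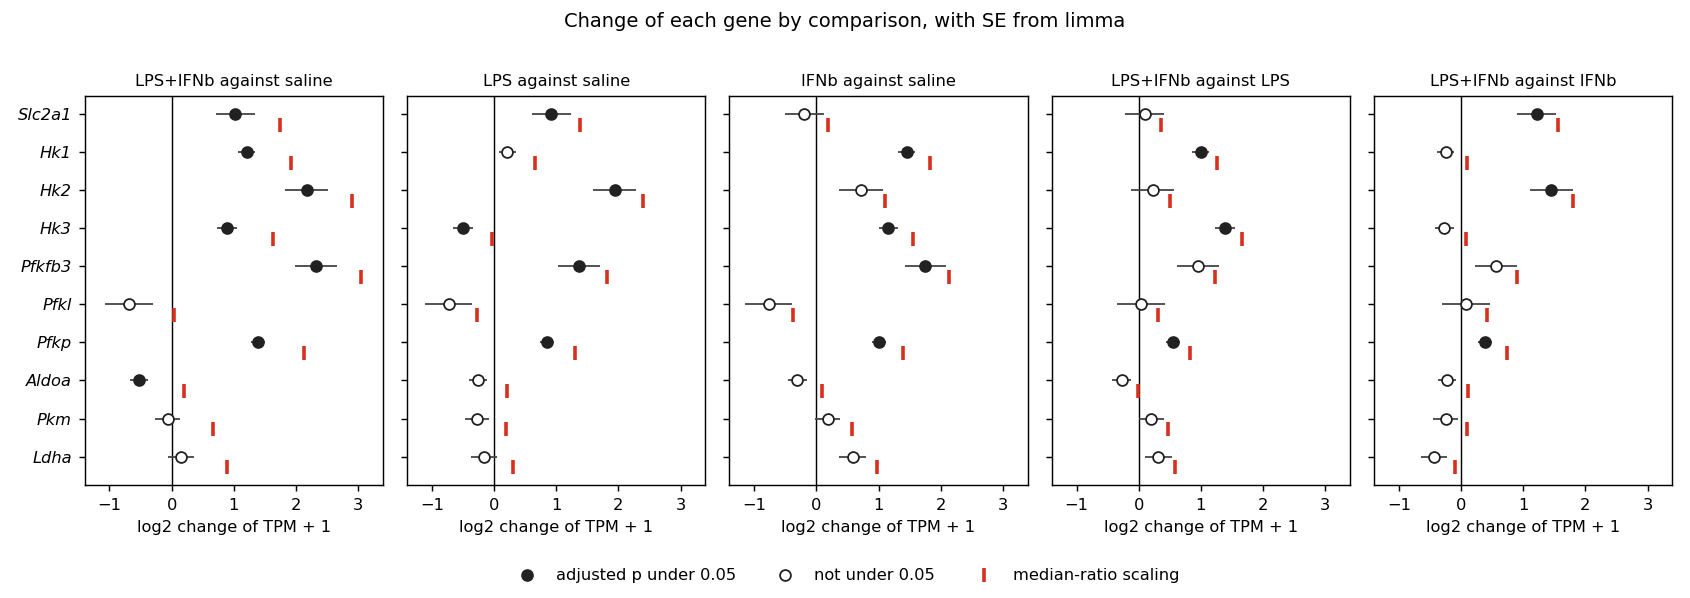
Log2 change of TPM + 1 of each of the 10 genes in 5 comparisons, with SE bars from limma; filled points have an adjusted p under 0.05 and red ticks give the change after median-ratio scaling. In LPS+IFNb against saline Pfkfb3 (2.32) and Hk2 (2.17) lie farthest to the right, and the red ticks lie to the right of the points in every comparison shown.

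The scale bears on every sign near 0. Because TPM has a fixed total, rises elsewhere push other genes down, and scaling the libraries by their median ratio instead moved the median of all genes up by 0.62, 0.39 and 0.34 for LPS+IFNb, LPS and IFNb over saline, and by 0.21 and 0.28 for LPS+IFNb over LPS and over IFNb. Such scaling takes the typical gene as unchanged, which was not tested. It left the median of all genes at 0.006, 0.01 and -0.03 for LPS+IFNb, LPS and IFNb over saline. On that scale, called rescaled below, the 10 genes counted 8, 5 and 6 higher for LPS+IFNb, LPS and IFNb over saline. For LPS+IFNb over LPS and over IFNb they counted 4 and 3 higher, with 0 lower in each of these 5 comparisons. The split of all genes moved with it, to 3567 higher and 3274 lower for LPS+IFNb over saline (1980 and 7042 as deposited), 2718 and 2255 for LPS over saline (1664 and 5368) and 2430 and 1938 for IFNb over saline (1697 and 5020). LPS+IFNb against LPS went to 1989 and 1368 (1400 and 3129) and LPS+IFNb against IFNb to 1788 and 1423 (1140 and 3967), while in LPS against IFNb the median moved by 0.06 and the members' counts were the same.

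Slc2a1 (ENSMUSG00000028645.11, chr4:119108711-119137983, plus strand; coordinates here are 1-based on GRCm38, the mm10 build) encodes GLUT1, which carries glucose across the plasma membrane. Its level, in replicate 1 and then replicate 2 as for all pairs below, was 181 and 131 TPM in LPS+IFNb, 123 and 169 TPM in LPS, 87.3 and 49.4 TPM in IFNb and 65.8 and 86.7 TPM in saline. The groups that had LPS did not overlap with the groups that had not. The change was 1.02 ± 0.31 in LPS+IFNb against saline (adjusted p = 0.0242), 0.92 ± 0.31 in LPS against saline (adjusted p = 0.0443) and -0.20 ± 0.31 in IFNb against saline (adjusted p = 0.629; rescaled 0.19). Against IFNb it was 1.22 ± 0.31 in LPS+IFNb (adjusted p = 0.0237) and 1.12 ± 0.31 in LPS (adjusted p = 0.0301), and LPS+IFNb did not differ from LPS beyond the spread (0.10 ± 0.31, adjusted p = 0.842).

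These calls of Slc2a1 were close to the threshold. In LPS against saline the adjusted p was 0.171 without Saline replicate 1, 0.0642 without Saline replicate 2, 0.0593 without LPS replicate 1, 0.196 without LPS replicate 2 and 0.0551 and 0.0550 without either LPS+IFNb library. In LPS+IFNb against saline it was 0.112 without Saline replicate 1 and 0.128 without LPS+IFNb replicate 1. Against IFNb the call of LPS+IFNb was lost without IFNb replicate 2 (adjusted p = 0.106) or LPS+IFNb replicate 1 (adjusted p = 0.122), and that of LPS without LPS replicate 1 (0.0505), LPS replicate 2 (0.147) or IFNb replicate 2 (0.136). In RNA from a mixed population a lower level can come from fewer cells of a type or from less RNA per cell, and these cannot be told apart for any gene here.

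**Figure D2:**
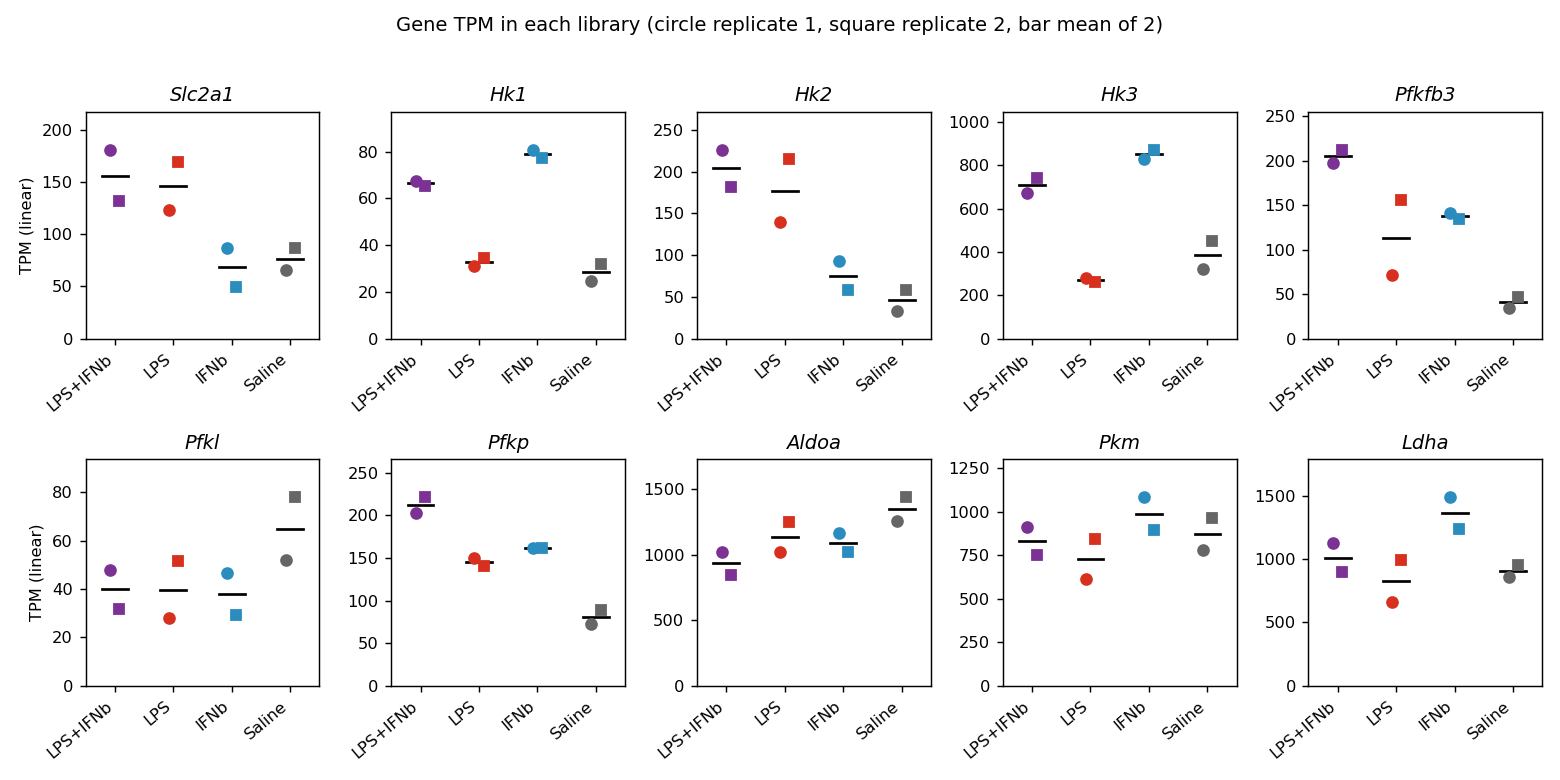
TPM of each gene in each library on linear axes from 0, with circles for replicate 1, squares for replicate 2 and bars for the mean of 2. Slc2a1 and Hk2 are high in the 4 libraries that had LPS, Hk1 and Hk3 in the 4 that had IFNb, and Pfkp is lowest in saline (72.1 and 88.9 TPM).

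The hexokinases trap glucose in the cell as glucose-6-phosphate, and their genes split between the agents. Hk2 (ENSMUSG00000000628.10, chr6:82725025-82774454, minus strand), the inducible isoenzyme that can bind mitochondria, had 226 and 182 TPM in LPS+IFNb, 139 and 215 TPM in LPS, 93.0 and 58.04 TPM in IFNb and 33.7 and 58.1 TPM in saline. All 4 libraries with LPS lay above all 4 without it, and the IFNb and saline ranges touched between IFNb replicate 2 and Saline replicate 2. Hk2 rose by 2.17 ± 0.35 in LPS+IFNb (adjusted p = 0.00145) and by 1.94 ± 0.35 in LPS (adjusted p = 0.00394) against saline, or 4.45-fold and 3.86-fold in mean TPM. IFNb against saline gave 0.72 ± 0.35 (adjusted p = 0.127; rescaled 1.10, adjusted p = 0.0373).

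Against IFNb, Hk2 was higher by 1.45 ± 0.35 in LPS+IFNb (adjusted p = 0.0185) and by 1.23 ± 0.35 in LPS (adjusted p = 0.0313). The first was lost without IFNb replicate 2 (adjusted p = 0.0986) or LPS+IFNb replicate 1 (0.0953) or 2 (0.0524), and the second without LPS replicate 2 (0.156), IFNb replicate 2 (0.159) or LPS+IFNb replicate 1 (0.0505) or 2 (0.0504). LPS+IFNb against LPS gave 0.23 ± 0.35 (adjusted p = 0.655). A noncoding processed transcript of 594 bases, Hk2-202, held 34.9% to 50.6% of the Hk2 TPM across the 8 libraries, and 41.9% ± 6.27 in LPS+IFNb, 41.1% ± 7.61 in LPS, 42.7% ± 11.1 in IFNb and 40.3% ± 4.29 in saline (SD, n = 2 each). With protein-coding transcripts alone Hk2 averaged 166 ± 6.42 TPM in LPS+IFNb, 147 ± 26.6 TPM in LPS, 59.8 ± 8.60 TPM in IFNb and 40.9 ± 12.7 TPM in saline.

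Hk1 (ENSMUSG00000037012.18, chr10:62268855-62379908, minus strand), the isoenzyme found in most tissues, followed IFNb. It had 67.2 and 65.5 TPM in LPS+IFNb, 31.2 and 34.5 TPM in LPS, 80.7 and 77.1 TPM in IFNb and 24.7 and 32.1 TPM in saline. LPS and saline overlapped, and both IFNb-treated groups lay above them. It rose by 1.21 ± 0.13 in LPS+IFNb (adjusted p = 0.000282) and by 1.45 ± 0.13 in IFNb (adjusted p = 0.000299) against saline, with 0.21 ± 0.13 in LPS (adjusted p = 0.217; rescaled 0.66, adjusted p = 0.00391). LPS+IFNb exceeded LPS by 0.99 ± 0.13 (adjusted p = 0.00243) and did not differ from IFNb beyond the spread (-0.25 ± 0.13, adjusted p = 0.183; rescaled 0.09).

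Hk3 (ENSMUSG00000025877.14, chr13:55005985-55021385, minus strand), an isoenzyme typical of myeloid cells, had the highest TPM of the 3 in every library. Its level was 672 and 744 TPM in LPS+IFNb, 279.8 and 259.6 TPM in LPS, 830.1 and 871 TPM in IFNb and 321 and 449.9 TPM in saline. No library of one group overlapped with another group, in the order IFNb, LPS+IFNb, saline, LPS. Against saline Hk3 rose by 0.89 ± 0.16 in LPS+IFNb (adjusted p = 0.00223) and by 1.16 ± 0.16 in IFNb (adjusted p = 0.0015). LPS lowered it to 270 ± 14.3 TPM, against 386 ± 91.1 TPM in saline (SD, n = 2 each; -0.49 ± 0.16, adjusted p = 0.0355).

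The call of that fall depended on the scaling and on single libraries. Rescaled the change was -0.03 (adjusted p = 0.871), and the call was also lost without Saline replicate 2 (adjusted p = 0.0916), LPS replicate 1 (0.0826) or 2 (0.140), IFNb replicate 1 (0.0583) or 2 (0.0584), or LPS+IFNb replicate 1 (0.0537) or 2 (0.0536). LPS+IFNb exceeded LPS by 1.39 ± 0.16 (adjusted p = 0.00137), and LPS lay below IFNb by 1.65 on the log2 scale (-1.65 ± 0.16, adjusted p = 0.000309) in Hk3 and by 1.24 (-1.24 ± 0.13, adjusted p = 0.000512) in Hk1. The summed monocyte markers given above were likewise highest in the 4 libraries with IFNb. Their 4 genes did not move as one, since Ccr2 had 5.34 and 8.02 TPM in LPS+IFNb and 23.4 and 22.8 TPM in IFNb, against 34.1 and 31.5 TPM in saline. The part of such cells in the levels of Hk1 and Hk3 was not tested.

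The makeup of hexokinase transcripts is given as shares of their summed TPM. Hk2 made up 23.4% and 18.4% of hexokinase TPM in LPS+IFNb, 31.0% and 42.2% in LPS, 9.26% and 5.77% in IFNb and 8.88% and 10.8% in saline. Hk3 made up 69.6% and 75.0% in LPS+IFNb, 62.1% and 51.0% in LPS, 82.7% and 86.6% in IFNb and 84.6% and 83.3% in saline. The Hk2 share was highest with LPS alone although its TPM was no higher there than with LPS+IFNb, as the hexokinase total came to 965 and 991 TPM in LPS+IFNb, 451 and 509 TPM in LPS, 1004 and 1006 TPM in IFNb and 379.7 and 540.1 TPM in saline. These shares are descriptions, with no test, and they depend on the transcripts summed: with protein-coding transcripts alone Hk2 made up 15.4% and 13.7% in LPS+IFNb, 24.9% and 30.7% in LPS, 5.53% and 4.37% in IFNb and 6.59% and 7.45% in saline.

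**Figure D3:**
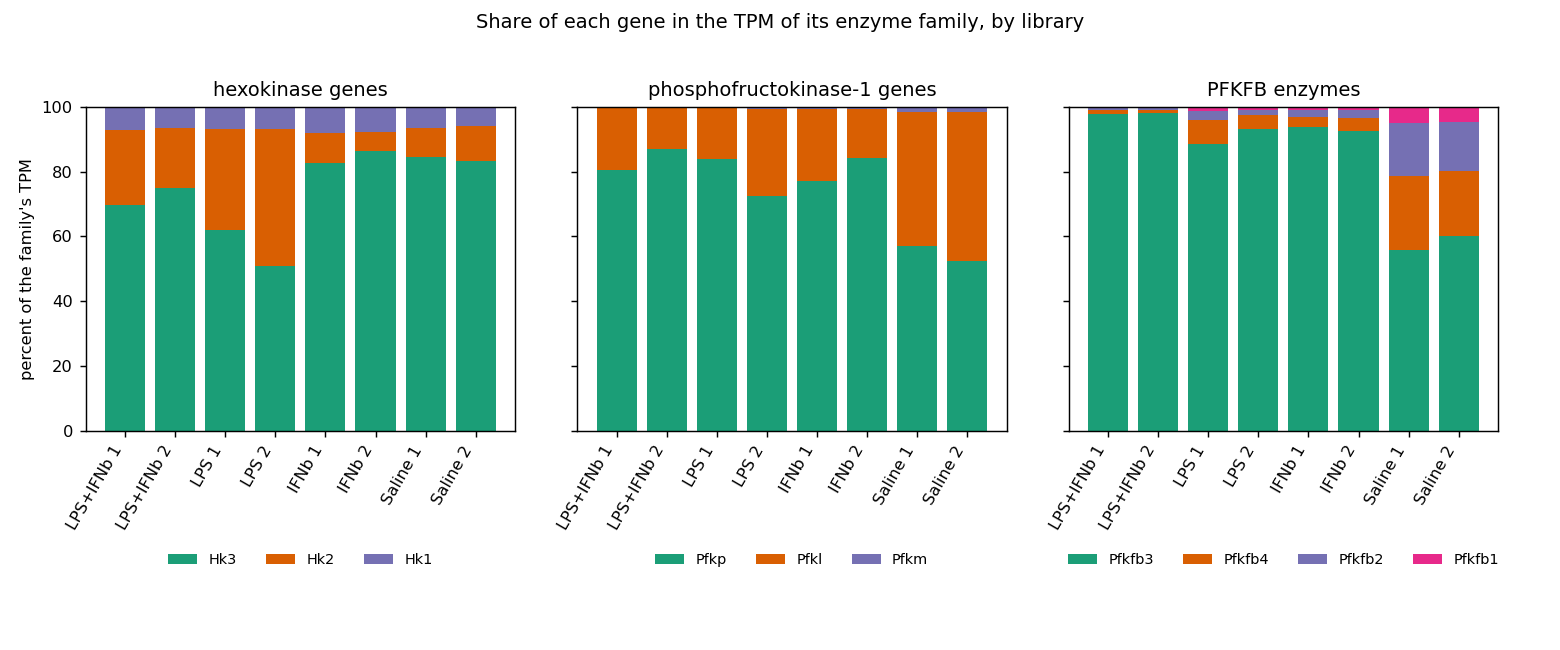
Percent of the TPM of 3 enzyme families held by each gene, 1 bar per library. Hk2 widens in the 4 libraries with LPS (18.4% to 42.2%), and Pfkp and Pfkfb3 hold more of their families in every treated library than in saline.

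Pfkfb3 (ENSMUSG00000026773.19, chr2:11471433-11554077, minus strand) encodes the PFKFB isoenzyme with the highest kinase activity, which makes fructose-2,6-bisphosphate. It had 198 and 212 TPM in LPS+IFNb, 71.2 and 156 TPM in LPS, 142 and 135 TPM in IFNb and 34.9 and 46.6 TPM in saline. Each treated library lay above both saline libraries, and the LPS libraries stood wide apart, on either side of IFNb. Against saline Pfkfb3 rose by 2.32 ± 0.34 in LPS+IFNb (adjusted p = 0.000957), 1.36 ± 0.34 in LPS (adjusted p = 0.0143) and 1.75 ± 0.34 in IFNb (adjusted p = 0.00583), which is the largest change among the 10 genes in LPS+IFNb and in IFNb. The LPS call was lost without Saline replicate 1 (adjusted p = 0.0676). LPS+IFNb against LPS gave 0.95 ± 0.34 (adjusted p = 0.0696; rescaled 1.23, adjusted p = 0.0299), with an adjusted p of 0.00684 without LPS replicate 2, and LPS+IFNb against IFNb 0.56 ± 0.34 (adjusted p = 0.226). The comparison with IFNb was called without LPS replicate 1 (adjusted p = 0.0356), without LPS replicate 2 (0.0357) and in a fit to those 2 groups alone (0.0122).

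The other PFKFB genes went the opposite way. Pfkfb2 had 0.972 and 1.18 TPM in LPS+IFNb, against 10.2 and 11.6 TPM in saline (-2.52 ± 0.15, adjusted p = 2.71e-05), and Pfkfb4 had 2.46 and 2.22 TPM, against 14.4 and 15.7 TPM in saline (-2.27 ± 0.15, adjusted p = 3.84e-05). Pfkfb2 also fell with LPS (-1.79) and with IFNb (-1.39), as did Pfkfb4 (-1.12 and -1.35). Pfkfb3 accordingly made up 97.9% and 98.2% of PFKFB TPM in LPS+IFNb, 88.7% and 93.3% in LPS and 93.7% and 92.6% in IFNb, against 55.7% and 60.1% in saline.

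Phosphofructokinase-1 makes fructose-1,6-bisphosphate, the committed step of glycolysis, and 2 of its 3 subunit genes are described here. Pfkp (ENSMUSG00000021196.14, chr13:6579768-6648777, minus strand), the platelet-type subunit, had 203 and 221 TPM in LPS+IFNb, 149.8 and 140.04 TPM in LPS, 161 and 162 TPM in IFNb and 72.1 and 88.9 TPM in saline. The 4 groups did not overlap. It rose by 1.39 ± 0.11 in LPS+IFNb (adjusted p = 9.25e-05), 0.85 ± 0.11 in LPS (adjusted p = 0.00131) and 1.00 ± 0.11 in IFNb (adjusted p = 0.000769) against saline, the tightest of the rises.

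LPS+IFNb exceeded LPS by 0.55 ± 0.11 in Pfkp (adjusted p = 0.0123) and IFNb by 0.39 ± 0.11 (adjusted p = 0.0358). The first call was lost without LPS replicate 2 (adjusted p = 0.0680) or LPS+IFNb replicate 2 (0.0681). The second was lost when any library other than a saline one was left out, with adjusted p = 0.0552 without LPS replicate 1, 0.0550 without LPS replicate 2, 0.125 and 0.127 without IFNb replicate 1 or 2, and 0.0804 and 0.149 without LPS+IFNb replicate 1 or 2.

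Pfkl (ENSMUSG00000020277.10, chr10:77986947-78010083, minus strand), the liver-type subunit, had 47.9 and 31.9 TPM in LPS+IFNb, 27.8 and 51.7 TPM in LPS, 46.7 and 29.3 TPM in IFNb and 51.95 and 78.03 TPM in saline. Both saline libraries lay above all 6 others, though Saline replicate 1 only just above LPS replicate 2. None of its changes passed the test: -0.69 ± 0.38 in LPS+IFNb (adjusted p = 0.151; rescaled 0.03), -0.73 ± 0.38 in LPS (adjusted p = 0.151) and -0.77 ± 0.38 in IFNb (adjusted p = 0.138) against saline. Pfkp held 80.6% and 87.1% of the TPM of the 3 subunit genes in LPS+IFNb, 84.0% and 72.5% in LPS and 77.1% and 84.2% in IFNb, against 57.2% and 52.4% in saline. With protein-coding transcripts alone Pfkp held 63.0% to 82.0% in the 6 treated libraries, against 47.4% and 43.8% in saline, where Pfkl then led with 50.3% and 53.9%.

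Aldoa (ENSMUSG00000030695.16, chr7:126795234-126800751, minus strand) encodes the aldolase that cleaves fructose-1,6-bisphosphate into trioses. Its level was 1023 and 847 TPM in LPS+IFNb, 1017 and 1249 TPM in LPS, 1165 and 1018 TPM in IFNb and 1257 and 1438 TPM in saline. Both saline libraries lay above every treated library, Saline replicate 1 only just above LPS replicate 2. It fell by 0.53 on the log2 scale in LPS+IFNb against saline (-0.53 ± 0.15, adjusted p = 0.0165), a direction that turned to 0.21 rescaled, and the call was lost without Saline replicate 2 (adjusted p = 0.0809) or LPS+IFNb replicate 2 (0.0964). LPS against saline gave -0.25 ± 0.15 (adjusted p = 0.189; rescaled 0.21) and IFNb against saline -0.30 ± 0.15 (adjusted p = 0.128; rescaled 0.09).

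Pkm (ENSMUSG00000032294.17, chr9:59656368-59679375, plus strand) encodes pyruvate kinase, which yields pyruvate and ATP. It had 913 and 752 TPM in LPS+IFNb, 614 and 841 TPM in LPS, 1084 and 893 TPM in IFNb and 778 and 965 TPM in saline. All groups overlapped with saline, and the change was -0.06 ± 0.20 in LPS+IFNb (adjusted p = 0.787), -0.27 ± 0.20 in LPS (adjusted p = 0.288) and 0.18 ± 0.20 in IFNb (adjusted p = 0.470) against saline. Rescaled, LPS+IFNb against saline came to 0.67 (adjusted p = 0.0208) and LPS against saline to 0.19 (adjusted p = 0.455).

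Pyruvate kinase M has forms made from alternative exons: the M2 form, under allosteric control, and the constitutively active M1 form. The annotation's transcripts of the gene in these data differ in the ninth exon, 167 bases in each, and also in their ends. The exons are shown because the choice between them defines the form. Both are from the GENCODE M21 transcripts on GRCm38, 5′ to 3′ on the plus strand, with capitals at the 64 positions that differ between them (61.7% identical).
Pkm-201 (M2), chr9:59675568-59675734: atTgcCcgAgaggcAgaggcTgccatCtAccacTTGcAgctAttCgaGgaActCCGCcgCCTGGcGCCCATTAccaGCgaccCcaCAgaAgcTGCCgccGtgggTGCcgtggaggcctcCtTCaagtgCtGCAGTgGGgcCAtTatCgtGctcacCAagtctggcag
Pkm-202 (M1), chr9:59675029-59675195: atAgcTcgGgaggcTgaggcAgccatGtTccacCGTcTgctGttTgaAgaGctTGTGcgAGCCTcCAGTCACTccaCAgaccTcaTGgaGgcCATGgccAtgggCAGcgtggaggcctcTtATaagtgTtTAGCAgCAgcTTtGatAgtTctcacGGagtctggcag
The transcript with the M2 exon held 87.5% and 84.4% of the Pkm TPM in LPS+IFNb, 86.7% and 84.1% in LPS, 83.9% and 85.0% in IFNb and 84.3% and 81.9% in saline. LPS and IFNb each overlapped with saline, and both LPS+IFNb libraries lay above both saline libraries, the lower of them only just (84.4% against 84.3%). No test was run on these shares. How reads were divided between transcripts that share most of their sequence was decided by the authors' pseudoalignment.

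Ldha (ENSMUSG00000063229.15, chr7:46841475-46855627, plus strand) encodes the lactate dehydrogenase subunit that favours lactate. It had 1127 and 897 TPM in LPS+IFNb, 658 and 991 TPM in LPS, 1490 and 1237 TPM in IFNb and 860.5 and 950.3 TPM in saline. IFNb stood above every other library, and the remaining groups overlapped. Against saline the change was 0.15 ± 0.21 in LPS+IFNb (adjusted p = 0.552; rescaled 0.89, adjusted p = 0.0112), -0.16 ± 0.21 in LPS (adjusted p = 0.551; rescaled 0.30) and 0.59 ± 0.21 in IFNb (adjusted p = 0.0576; rescaled 0.98, adjusted p = 0.0120).

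LPS lay below IFNb in Ldha by 0.75 on the log2 scale (-0.75 ± 0.21, adjusted p = 0.0321), a call lost without LPS replicate 1 (adjusted p = 0.131) or IFNb replicate 1 (0.155) or 2 (0.0646). Ldhb, the other subunit, made up 0.983% ± 0.141 of lactate dehydrogenase TPM in LPS+IFNb, 1.70% ± 0.571 in LPS, 0.974% ± 0.195 in IFNb and 2.21% ± 0.444 in saline (SD, n = 2 each), and it fell with LPS+IFNb (-0.96 ± 0.13, adjusted p = 0.000672; rescaled -0.27). Together the 10 genes took 0.466% and 0.408% of TPM in LPS+IFNb, 0.311% and 0.411% in LPS, 0.518% and 0.453% in IFNb and 0.35% and 0.419% in saline.

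The interaction is the change from IFNb to LPS+IFNb minus the change from saline to LPS. IFNb had been given 8 h before the end in LPS+IFNb and 4 h before it in IFNb. Every interaction value in this text therefore mixes the response to LPS after IFNb with time since IFNb. It was called for 0 of the 10 genes by limma, with 2 at an unadjusted p under 0.05, Hk1 (-0.46 ± 0.19, unadjusted p = 0.0465 and adjusted p = 0.204) and Pfkp (-0.46 ± 0.16, unadjusted p = 0.0276 and adjusted p = 0.155). Among all 13009 genes tested 3059 had an unadjusted p under 0.05, so 2 of the 10 is no more than the share over all genes. Of all genes 7.96% were called, 3.51% higher and 4.45% lower. Pfkfb3 had -0.80 ± 0.48 (adjusted p = 0.379), and without LPS replicate 1 its adjusted p was 0.0434. Hk2 had -0.49 ± 0.49 and Slc2a1 0.29 ± 0.44, SEs that leave room for sizeable departures from additivity in either direction.

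The other 21 glycolytic enzyme genes, of which 17 were tested, gave few rises, and their falls were near the share over all genes. With LPS+IFNb 0 rose and 9 fell, where 15.2% of all genes rose and 54.1% fell (median -0.83 against -0.62 for all genes; rescaled 1 and 5), with LPS 0 rose and 6 fell, against 12.8% and 41.3% of all genes (median -0.46 against -0.38; rescaled 0 and 3), and with IFNb 1 rose and 7 fell, against 13% and 38.6% (median -0.30 against -0.37; rescaled 1 and 2). The rise was that of Pgam2, a phosphoglycerate mutase subunit typical of muscle (0.98 ± 0.23, adjusted p = 0.0113). After Pfkfb2 and Pfkfb4 the falls with LPS+IFNb at the lowest p were those of Ldhb and of Bpgm, the bisphosphoglycerate mutase (-1.53 ± 0.22, adjusted p = 0.000974). Of the abundant enzymes of lower glycolysis, the triose dehydrogenase Gapdh averaged 2771 ± 538 TPM in LPS+IFNb, 3240 ± 865 TPM in LPS and 3300 ± 616 TPM in IFNb, against 2935 ± 719 TPM in saline, and the phosphoglycerate kinase Pgk1 466 ± 177 TPM in LPS+IFNb, 457 ± 168 TPM in LPS and 492 ± 178 TPM in IFNb, against 441 ± 37.2 TPM in saline (SD, n = 2 each). Neither was called in any of the 3 comparisons with saline, nor were the lower enzymes Tpi1 and Eno1. Pgam1, the other phosphoglycerate mutase gene, was called lower with LPS+IFNb (-0.67 ± 0.19, adjusted p = 0.0178), which turned to 0.07 rescaled.

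**Figure D4:**
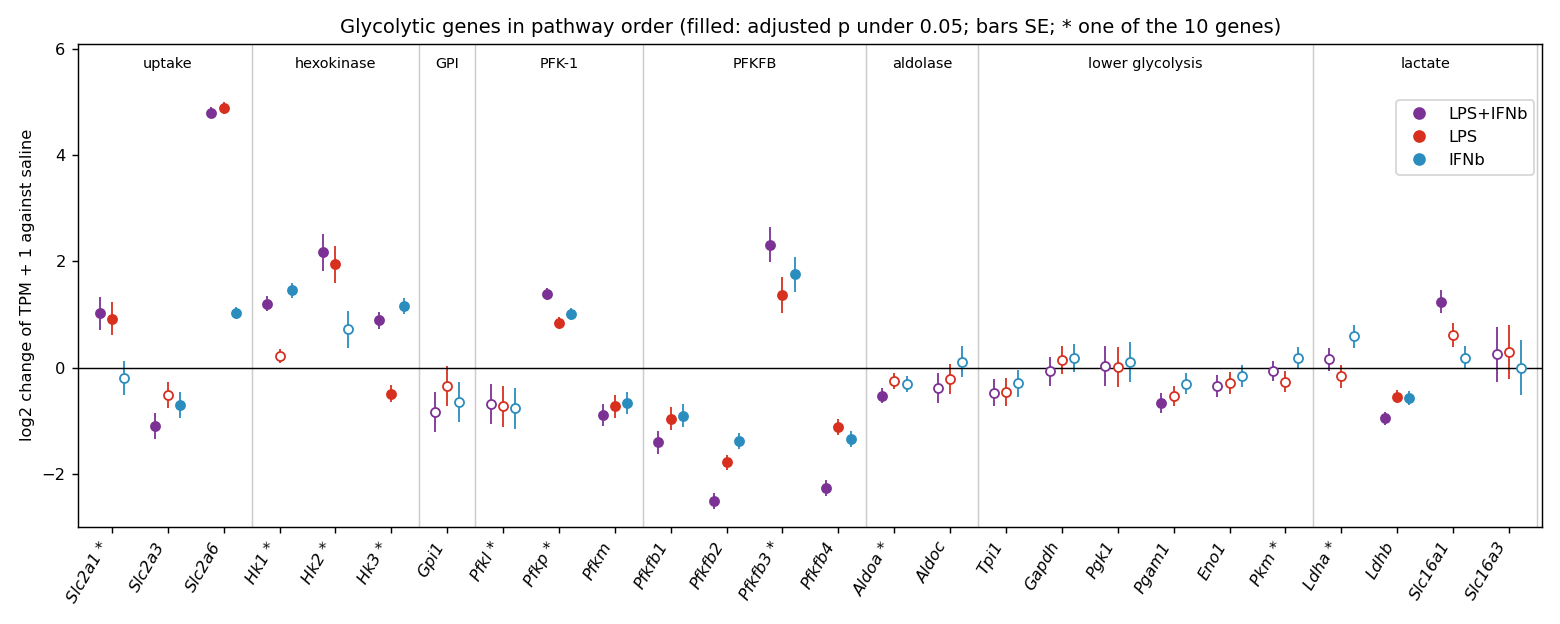
Log2 change of TPM + 1 against saline, with SE bars, for glycolytic genes in pathway order; filled points have an adjusted p under 0.05 and asterisks mark the 10 genes. Filled points above 0 lie at the uptake, hexokinase, phosphofructokinase-1 and PFKFB steps and, among the lactate genes, at Slc16a1 in LPS+IFNb (1.24). Slc2a6 is highest (4.81 in LPS+IFNb and 4.89 in LPS). Among the genes drawn, which are a selection, no filled point from aldolase to pyruvate kinase lies above 0. Pgam2, called higher with IFNb (0.98), is not drawn. After median-ratio scaling Pkm was also called higher in LPS+IFNb (0.67).

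Among 12 other glucose and lactate transporter genes, 8 tested, LPS+IFNb raised 2 and lowered 3, against 15.2% and 54.1% of all genes (median -0.46 against -0.62 for all genes; rescaled 2 and 1, median 0.21). The outstanding one was Slc2a6, which encodes GLUT6, a transporter found on lysosomes. It had 220.4 and 222 TPM in LPS+IFNb, 229 and 239 TPM in LPS, 16.9 and 13.7 TPM in IFNb and 6.80 and 7.06 TPM in saline. It passed Slc2a1 in TPM in each of the 4 libraries with LPS and lay below it in the 4 without, but with protein-coding transcripts alone Slc2a1 was the higher in LPS+IFNb replicate 1 (50.9% of the summed SLC2A TPM, against 47.9% for Slc2a6). The change was 4.81 ± 0.11 in LPS+IFNb (adjusted p = 5.96e-07), 4.89 ± 0.11 in LPS (adjusted p = 1.09e-06) and 1.03 ± 0.11 in IFNb (adjusted p = 0.00058), and the interaction was -1.11 ± 0.16 (adjusted p = 0.00876). Slc16a1, the lactate carrier MCT1, rose with LPS+IFNb (1.24 ± 0.22, adjusted p = 0.0023), to 18.8 and 12.9 TPM, against 5.60 and 6.46 TPM in saline.

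Lists of branches off glycolysis are to be read against the same shares of all genes, 15.2% higher and 54.1% lower with LPS+IFNb, 12.8% and 41.3% with LPS and 13% and 38.6% with IFNb, and against medians of all genes of -0.62, -0.38 and -0.37. Of 8 pentose phosphate genes 1 rose and 7 fell with LPS+IFNb (median -1.10; rescaled 1 and 4), 0 and 7 with LPS (median -0.58; rescaled 1 and 1) and 1 and 6 with IFNb (median -0.61; rescaled 1 and 0). Pgd, the second dehydrogenase of the pathway, fell by 1.17 ± 0.08 with LPS+IFNb (rescaled -0.44), and Rpe, the ribulose phosphate epimerase, rose by 0.96 ± 0.09. Of 10 tested genes of gluconeogenesis and glycogen 0 rose and 7 fell with LPS+IFNb (median -1.06; rescaled 0 and 4), at the lowest p Ugp2, which makes UDP-glucose for glycogen (-1.36 ± 0.11, adjusted p = 9.77e-05; rescaled -0.63).

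The genes that admit pyruvate to mitochondria gave 1 rise and 9 falls of 12 with LPS+IFNb, against 15.2% and 54.1% of all genes (median -0.83 against -0.62; rescaled 3 and 3). They gave 1 and 8 with LPS, against 12.8% and 41.3% (median -0.48 against -0.38; rescaled 2 and 4), and 1 and 4 with IFNb, against 13% and 38.6% (median -0.21 against -0.37; rescaled 2 and 2). Pdk3, a kinase that switches pyruvate dehydrogenase off, had 32.3 and 29.7 TPM in LPS+IFNb, 7.86 and 9.64 TPM in LPS and 45.9 and 42.0 TPM in IFNb, against 13.2 and 11.6 TPM in saline. It rose with LPS+IFNb (1.26 ± 0.13) and IFNb (1.75 ± 0.13) and fell with LPS (-0.46 ± 0.13, adjusted p = 0.0241; rescaled -0.04). Pdp1, a phosphatase that switches the enzyme back on, had 9.83 and 12.2 TPM in LPS+IFNb, 6.003 and 4.84 TPM in LPS and 30.4 and 29.1 TPM in IFNb, against 42.1 and 36.6 TPM in saline, and fell by 1.75 ± 0.15 with LPS+IFNb and 2.65 ± 0.15 with LPS.

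Of 14 regulators of glycolysis 3 rose and 7 fell with LPS+IFNb, near the 15.2% and 54.1% of all genes (median -0.48 against -0.62; rescaled 4 and 4). With LPS 2 rose and 4 fell, against 12.8% and 41.3% (median -0.57 against -0.38; rescaled 5 and 1), and with IFNb 1 rose and 2 fell, against 13% and 38.6% (median -0.13 against -0.37; rescaled 2 and 1). Hif1a, the oxygen-regulated subunit of HIF-1, had 263 and 269 TPM in LPS+IFNb, 234 and 226 TPM in LPS, 84.0 and 89.1 TPM in IFNb and 48.2 and 49.1 TPM in saline. The 4 groups did not overlap, and it rose by 2.43 ± 0.07 in LPS+IFNb (adjusted p = 1.38e-06), 2.22 ± 0.07 in LPS (adjusted p = 3.31e-06) and 0.82 ± 0.07 in IFNb (adjusted p = 0.000267) against saline, with an interaction of -0.61 ± 0.10 (adjusted p = 0.0182). Myc, a factor that activates glycolytic genes, rose with LPS+IFNb (1.58 ± 0.25) and LPS (2.00 ± 0.25). Txnip, which restrains glucose uptake, had 104 and 103.8 TPM in LPS+IFNb, 94.8 and 136 TPM in LPS and 404 and 377 TPM in IFNb, against 385 and 409.96 TPM in saline, and fell by 1.92 ± 0.16 with LPS+IFNb and 1.80 ± 0.16 with LPS.

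Of 14 other known HIF targets tested, read against those same shares, 2 rose and 4 fell with LPS+IFNb (median -0.53 against -0.62 for all genes; rescaled 3 and 2), 0 and 6 with LPS (median -0.65 against -0.38; rescaled 2 and 3) and 1 and 3 with IFNb (median -0.54 against -0.37; rescaled 1 and 3). P4ha1, a collagen prolyl hydroxylase, rose with LPS+IFNb (1.60 ± 0.23) and IFNb (1.97 ± 0.23). Ankrd37, an ankyrin repeat gene, had 17.0 and 6.39 TPM in LPS+IFNb and 5.68 and 12.6 TPM in LPS, against 106 and 167 TPM in saline, falling by 3.54 ± 0.57 and 3.81 ± 0.57. The interaction was called in this list for Ndrg1 (2.18 ± 0.29, adjusted p = 0.00694), Bhlhe40 (1.92 ± 0.26, adjusted p = 0.00758) and Kdm3a (1.24 ± 0.25, adjusted p = 0.0362).

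The libraries of a group differed from each other in these same HIF targets, and most of the 10 genes differed with them. The mean log2 level of the 14 other HIF targets, replicate 1 minus replicate 2, was 0.92 in LPS+IFNb, -0.93 in LPS, 0.66 in IFNb and -0.55 in saline. Slc2a1, Hk1, Hk2, Pfkl, Aldoa, Pkm and Ldha had the sign of the list in all 4 groups, 7 of 10 genes or 70%, against 11.9% of all genes tested (1546 of 13009). The trait was not particular to these genes. It was seen in 50% of the other glucose and lactate transporters and 50% of the gluconeogenesis and glycogen genes. The share was 35.3% of the other glycolytic enzymes, 28.6% of the regulators, 12.5% of the pentose phosphate genes and 0% of the pyruvate entry genes. Pfkfb3 had it in 3 groups, and Hk3 and Pfkp in 1. Pfkl, Hk2, Pfkfb3 and Slc2a1 had within-group SDs of 0.48, 0.43, 0.42 and 0.39 on the log2 scale, against a median of 0.17 over all genes.

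The same library of each group was higher in some other measures and lower in others. The sum of 5 mesothelial markers was 9.64 and 3.38 TPM in LPS+IFNb, 4.90 and 11.6 TPM in LPS, 12.3 and 4.24 TPM in IFNb and 7.23 and 14.2 TPM in saline. Retnlg, a neutrophil marker, had 66.1 and 27.3 TPM in LPS+IFNb, 29.7 and 72.4 TPM in LPS, 107 and 51.7 TPM in IFNb and 73.9 and 128 TPM in saline. The 11 neutrophil markers summed to 221.3 and 142.2 TPM in LPS+IFNb and 192.8 and 286.6 TPM in LPS. In IFNb they summed to 232.4 and 154.2 TPM and in saline to 213.3 and 281.5 TPM. The mast cell and B cell sums had these same directions. Markers of T and NK cells went the opposite way, at 8.48 and 12.7 TPM in LPS+IFNb and 15.7 and 12.4 TPM in LPS. They were at 5.62 and 17.5 TPM in IFNb and 26.3 and 21.2 TPM in saline. The erythroid sum was opposite too. The part of such cells in the levels of the 10 genes was not tested.

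**Figure D5:**
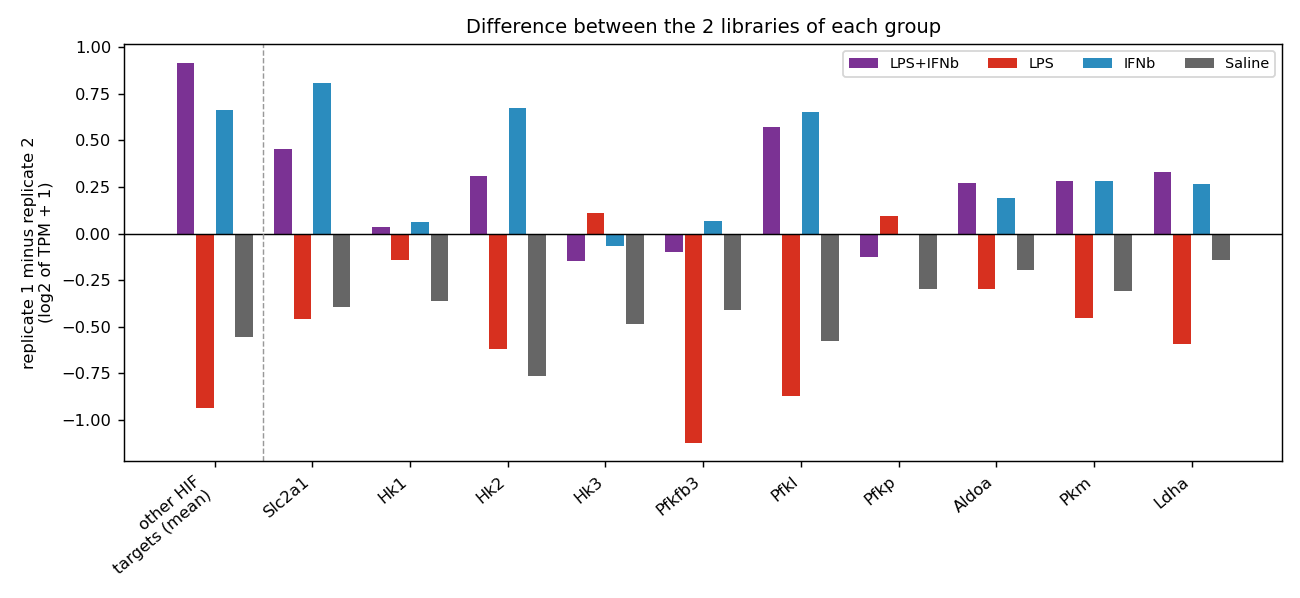
Difference between the 2 libraries of each group, replicate 1 minus replicate 2 in log2(TPM + 1), for the mean of 14 other HIF targets (left) and the 10 genes. LPS+IFNb and IFNb point up and LPS and saline down in the HIF target mean and in Slc2a1, Hk1, Hk2, Pfkl, Aldoa, Pkm and Ldha.

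Genes with the most similar profiles were found among 7050 others by the root mean square difference of centred log2 levels over the 8 libraries, for the 7 genes called in LPS+IFNb against saline. Pfkp lay nearest to Ptpn2 (0.0988), Hk1 to Tmem219 (0.0829), Hk3 to Tmcc3 (0.0775) and Aldoa to Emilin2 (0.0601). The matches of Pfkfb3 with Stat3 (0.282), Hk2 with Ak4 (0.216) and Slc2a1 with Klf2 (0.209) were looser.

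Because several of the genes rose together, their promoters were read for a few short motifs in the RefSeq table of GRCm38.p6. Its windows run from 250 bases before to 50 bases after each annotated start, and 16 of them belong to the 10 genes. A gene can have several such starts. The core of the HIF response element, ACGTG on either strand, was in 10 of the 16 windows, against 19.6% of all 32851 windows. Windows of different Aldoa starts held the same site, which was counted in each. By gene the core was in 8 of the 10, all but Pfkl and Pfkp. No share over all genes was computed for that count, and a gene with more windows has more room for a match. The median GC content was 64% in the members' windows and 52.7% in all, and this difference was not adjusted for. The interferon-response motif (GAAA, any 2 bases, GAAA) was in 0 of the 16 windows and 3.44% of all, and the NF-kB-type motif (GGGA, any 3 bases, TCC) in 0 of 16 and 4.59% of all, both searched on either strand. The 50 bases around a match are shown for Hk2, raised in the groups with LPS, Pfkfb3, raised in all 3 treated groups, and Ldha, not called against saline, to show that the letters occur in genes of unlike behaviour. Each is written 5′ to 3′ in the gene's sense with the match in capitals. CACGTG is its own reverse complement and holds the motif on both strands.
Hk2, chr6:82774480-82774529, minus strand: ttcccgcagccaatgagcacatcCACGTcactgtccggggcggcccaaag
Pfkfb3, chr2:11502116-11502165, minus strand: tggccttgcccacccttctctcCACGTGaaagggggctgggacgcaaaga
Ldha, chr7:46845747-46845796, plus strand: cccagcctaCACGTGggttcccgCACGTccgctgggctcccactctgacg
The first match shown begins 52 bases before the annotated start of its window in Hk2, 53 in Pfkfb3 and 48 in Ldha. In Pfkfb3 and Ldha this start lies inside the gene span given above and is not its outer 5′ end. Pfkfb3 has another window with a match, at chr2:11553963-11554012, close to that end. A match describes letters and is not a bound site, and its absence says only that the letters are not in this window.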

How the data were processed

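The 8 deposited files hold TPM values of 88198 mouse transcripts, made by the authors; the submitters' processing notes name kallisto, which pseudoaligns reads to transcripts, and mm10. The sources used here give no version, option or strand setting. TPM keeps no read number, so depth and counting error are unknown, and reads shared by paralogs, pseudogenes or overlapping transcripts were divided by an estimate. A processed transcript or pseudogene can therefore take reads of its parent gene.

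Transcripts were matched to GENCODE M21 on GRCm38 (86119 of 88198; the other 2079 held 1.01% to 1.95% of TPM and were left out) and summed per gene. The 13009 genes that reached 1 TPM in 2 or more libraries were analysed as log2(TPM + 1) in limma 3.58.1 under R 4.3.3 (limma-trend, all 8 libraries, 1 mean per group, 4 residual and 2.54 prior degrees of freedom), with two-sided tests, Benjamini-Hochberg adjustment over all genes of a comparison and calls at an adjusted p under 0.05. The model was tested on simulated data. Groups and replicate numbers come from the sample titles.

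The genes, 7 pathway lists and 8 marker lists were chosen with earlier results of these data known, and some genes of these lists are not reported here. Named list genes are those called at the lowest adjusted p, up to 4 per direction of a list, of which some are given here. Gapdh, Pgk1, Pgam1, Tpi1, Eno1 and Retnlg were named after their values were seen. Alternatives were median-ratio and upper-quartile scaling, a pseudocount of 0.1, no filter, a minimum of 5 TPM, protein-coding transcripts only, the replicate number as a block, a fit to 2 groups, an adjusted p under 0.01 and each library left out in turn.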

Additional observations from a re-analysis of the deposited data

How the results depend on the processing

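Of 118 counts of called genes under alternatives, 98 lay within 1.5 times the value reported. With each library left out in turn, the count lay between 3 and 4 in LPS against saline (5 reported), 0 and 4 in LPS+IFNb against IFNb (3 reported), 2 and 5 in LPS against IFNb (5 reported) and 0 and 1 in the interaction (0 reported), where the lone library of a group was assumed to vary like the other groups. With no filter (more genes tested) the counts in the first 3 of these were 3, 0 and 2, and at an adjusted p under 0.01 they were 2, 0 and 2, while a fit to the groups compared alone gave 3 in LPS against saline and 3 in LPS against IFNb. The main fit did not treat the replicate numbers as pairs. The correlations of deviations between same-numbered libraries ran from -0.156 to 0.141. With 2 libraries a group these cannot show whether same-numbered libraries were handled together. A model with the replicate block gave 3 in LPS against IFNb and changed no other count by over 1.5 times. It ended the calls of Slc2a1 in LPS against saline (adjusted p = 0.0639) and of Hk2 (0.0501) and Ldha (0.0532) in LPS against IFNb, and no other. Of 40 group means of shares within a gene or family, 25 moved by more than the spread between libraries when only protein-coding transcripts were summed. Counts for LPS+IFNb and IFNb over saline and for LPS+IFNb over LPS stayed within 1.5 times under every alternative run.

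Of 1180 changes of single genes under alternatives 46 took the other sign, and none of these had been called except Aldoa in LPS+IFNb against saline. Median-ratio scaling gave Aldoa 0.21, Pkm 0.19 and Ldha 0.30 in LPS against saline, Slc2a1 0.19 and Aldoa 0.0882 in IFNb against saline, and Pfkl 0.0307, Aldoa 0.21 and Pkm 0.67 in LPS+IFNb against saline. It gave Hk1 0.0925, Hk3 0.0769, Aldoa 0.12 and Pkm 0.10 in LPS+IFNb against IFNb, and Aldoa -0.0919 and Pkm -0.10 in the interaction. Upper-quartile scaling gave Ldha 0.0268 in LPS against saline and Pkm 0.26 in LPS+IFNb against saline, and protein-coding transcripts gave Pfkl -0.0003 in LPS+IFNb against LPS. Scaling moves every change of a comparison by nearly 1 amount, which is the cause of these turns by construction. With a library left out, the changes that crossed 0 ran from -0.46 to 0.13 for Ldha in LPS against saline, -0.60 to 0.21 for Slc2a1 in IFNb against saline, -0.22 to 0.0904 for Pkm and -0.0116 to 0.32 for Ldha in LPS+IFNb against saline. For LPS+IFNb over LPS they ran from -0.13 to 0.33 for Slc2a1, -0.0829 to 0.54 for Hk2, -0.40 to 0.48 for Pfkl and -0.0215 to 0.43 for Pkm, and in LPS+IFNb against IFNb from -0.25 to 0.40 for Pfkl. In LPS against IFNb they ran from -0.95 to 0.17 for Pfkfb3, -0.40 to 0.47 for Pfkl and -0.10 to 0.20 for Aldoa. In the interaction they ran from -0.11 to 0.70 for Slc2a1, -0.014 to 0.47 for Hk3, -0.12 to 0.18 for Aldoa, -0.20 to 0.25 for Pkm and -0.56 to 0.0254 for Ldha. The cause of the changes on leaving out a library was not tested. Precision is limited by 2 libraries a group, and the depth is unknown.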
